A study of Mus musculus with 42 samples.

Results

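The 10 genes described here encode transcription factors listed for the myeloid lineage: Spi1, Runx1, Cebpa, Cebpd, Cebpe, Gfi1, Klf2, Klf4, Klf6 and Egr1. Some of these factors bear on the choice between granulocyte and monocyte fate. The 10 genes were chosen by name, with earlier results of these data known. All 10 were found among the 55487 gene identifiers of each deposited count table. Their messenger RNA and their ribosome footprints, the short stretches of mRNA that a ribosome shields from nuclease, were followed in leukaemia cells of 21 mice. Of the 10 genes, all passed the filter on low counts in mRNA, and 8 passed it in footprints. Klf4 and Egr1 had too few footprint counts to pass, so the reported footprint tests leave them out.

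The cells were mouse acute myeloid leukaemia cells that carry the MLL-AF9 fusion and were marked by green fluorescent protein. They descended from 1 terminally ill mouse, were expanded in culture with SCF, IL-3 and IL-6, and were given by vein to male recipients aged 8 to 10 weeks without preconditioning, so the hosts kept their own marrow. The genotype label of all samples was WT, and every group carried the same leukaemia. The 4 groups were the BCAA-free diet with 5+3 (7 mice), the BCAA-free diet with vehicle (5), the AA diet with 5+3 (4) and the AA diet with vehicle (5). The BCAA-free diet lacked the branched-chain amino acids leucine, isoleucine and valine, and the AA diet was the standard amino acid diet. The course called 5+3 was cytarabine, which blocks DNA synthesis, at 100 mg/kg for 5 days with doxorubicin, a topoisomerase poison, at 3 mg/kg for 3 days, and the vehicle was PBS. Fluorescent cells were sorted from the bone marrow at the point of maximum response, and each mouse gave 1 mRNA library (Smart-seq2) and 1 footprint library. The study asked how the diet alters expressed and translated mRNAs after chemotherapy. Names of the AA vehicle mice, and of no others, end in B, which no label explains, and what it stands for cannot be told apart from that group.

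Blood granulocytes and monocytes arise from a shared progenitor in the bone marrow. PU.1, the ETS-family factor encoded by Spi1, and C/EBP alpha, encoded by Cebpa, open the myeloid programme together with RUNX1, while C/EBP epsilon drives the late granulocyte stages in which secondary granules are filled. GFI1 is a repressor that favours granulocytes over monocytes, and KLF4 and EGR1 are associated with the monocyte side. MLL-AF9 leukaemias are arrested at a stage close to the granulocyte and monocyte progenitor, and both C/EBP alpha and PU.1 bear on whether such cells mature.

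Promoter windows from RefSeq on GRCm38.p6, which run from 250 bases before to 50 bases after an annotated start, matched 6 of the 10 genes in 8 windows. Shown here are both Runx1 windows, at its distal and its proximal promoter, and the upstream Gfi1 window, because these 2 genes had fewer footprints in the BCAA-free 5+3 mice than in a comparison group and their windows hold a motif of the members' own families. Capitals mark a match to RUNX (TGTGGT), ETS (GAGGAA), C/EBP (TTNCNNAA) or EGR (GCGGGGGCG) letters on either strand. All 3 sequences are printed 5′ to 3′ on the minus strand, which is the coding strand of both genes.
Runx1 distal window, chr16:92826025-92826324: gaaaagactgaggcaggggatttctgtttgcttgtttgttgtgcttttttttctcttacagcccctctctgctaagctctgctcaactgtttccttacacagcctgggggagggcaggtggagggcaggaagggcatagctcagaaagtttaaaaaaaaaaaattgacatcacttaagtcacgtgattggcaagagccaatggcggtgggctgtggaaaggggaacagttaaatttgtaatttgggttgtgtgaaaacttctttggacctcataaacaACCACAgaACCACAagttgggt
Runx1 proximal window, chr16:92697280-92697579: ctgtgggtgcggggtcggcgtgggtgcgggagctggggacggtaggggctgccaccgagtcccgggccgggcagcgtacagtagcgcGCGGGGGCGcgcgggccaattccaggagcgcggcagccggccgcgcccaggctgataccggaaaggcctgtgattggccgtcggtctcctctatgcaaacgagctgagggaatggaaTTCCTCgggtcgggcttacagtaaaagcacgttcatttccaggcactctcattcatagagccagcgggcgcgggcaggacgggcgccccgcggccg
Gfi1 upstream window, chr5:107725756-107726055: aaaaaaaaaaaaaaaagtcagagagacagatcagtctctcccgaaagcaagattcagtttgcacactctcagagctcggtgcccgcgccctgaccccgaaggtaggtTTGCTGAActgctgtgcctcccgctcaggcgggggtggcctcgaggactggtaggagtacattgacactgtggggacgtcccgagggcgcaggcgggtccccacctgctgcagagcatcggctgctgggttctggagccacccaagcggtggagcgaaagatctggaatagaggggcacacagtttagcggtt
The distal Runx1 window held 2 RUNX matches, beginning 29 and 37 bases into the transcript, with the first transcribed base counted as 1. The proximal Runx1 window held 1 ETS match that begins 46 bases before the start and 1 EGR match that begins 163 bases before it. The Gfi1 window held 1 C/EBP match beginning 143 bases before the start. The other Gfi1 window and the Cebpa window, not shown, held no match to any of the letters searched here. Cebpe and Cebpd were not among the genes with a window. The windows shown were picked for holding a match, so that they hold one is not a result. These letters are common: of 32851 promoter windows of the same length, 16.8% held a RUNX match, 28.3% an ETS match, 40.7% a C/EBP match and 2.91% an EGR match. A GC box (GGGCGG, letters read by KLF and SP factors) stood in 35.7% of windows, among them those of Klf2 (2 matches), Klf4 (4) and Klf6 (1), and a GFI1 match (AAATCNNNG) in 10.6%. EGR and GC box matches can overlap. A match is a description of letters and not a measured binding site.

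The genes lie on 9 chromosomes of the mouse build GRCm38.p6, as annotated by RefSeq. Spi1 spans 91082374 to 91115759 of chromosome 2. Runx1 spans 92601466 to 92826074 of chromosome 16, where the lncRNA Gm30281 overlaps it. Cebpd spans 15887286 to 15889545 of the same chromosome and overlaps the protein-coding gene Spidr. Cebpa lies at 35119293 to 35121928 of chromosome 7, Cebpe at 54710363 to 54712174 of chromosome 14 and Gfi1 at 107716655 to 107725805 of chromosome 5. Klf2 lies at 72319062 to 72321654 of chromosome 8, Klf4 at 55527137 to 55532475 of chromosome 4, Klf6 at 5861489 to 5870393 of chromosome 13 and Egr1 at 34861207 to 34864956 of chromosome 18. The strand setting of the counting is not given in the sources used here, so reads of Runx1 and Cebpd cannot be separated from those of their overlapping partners.

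The mRNA libraries held 30996200 to 70437713 gene counts and the footprint libraries 2697092 to 8863472. In a principal component analysis of mRNA, BCAA-free 5+3 replicate 7 and BCAA-free vehicle replicates 1, 2 and 5 lay away from the other 17 libraries on the first axis. In footprints they did not stand apart: the first axis held 38.6 for that 5+3 mouse and -6.33, 1.05 and -23.2 for the vehicle mice. The other footprint libraries ran from -58.4 to 48.2. Calls among the 10 factors that rest on these 4 mice are given with and without them, as are several of the other changes. The fit without them leaves 6 BCAA-free 5+3 and 2 BCAA-free vehicle mice. In that fit 2.39% of all genes passed in footprints with 5+3 on the BCAA-free diet, 23.9% between the diets under 5+3 and 5.25% with 5+3 on the AA diet, and in mRNA 0.0779%, 2.09% and 0.123%. The leukaemia and myeloid identity genes were Hoxa9, Meis1, Ptprc, Mpo, Kit and Itgam. Their summed footprints were 3800 to 7550 CPM (counts scaled to the TMM-adjusted library total) over all mice. None of the 6 was at 0 in any library. Mpo alone had 3040 to 6940 CPM, so the sum is mostly Mpo, while Hoxa9 had 25.1 to 43.2 and Meis1 34.7 to 53.6 CPM. In mRNA the sums were 2220 to 13500 CPM. Mpo is also in the list of C/EBP targets below, and Ptprc and Itgam are in that of PU.1 targets. Markers of maturing host or leukaemic cells moved with the groups. Summed footprints of 9 mature neutrophil genes ranged from 105 to 1180 CPM in BCAA-free 5+3 mice (median 229), 842 to 1410 in BCAA-free vehicle mice, 697 to 2130 in AA 5+3 mice and 997 to 1370 in AA vehicle mice, with no gene at 0. For 7 monocyte and macrophage genes they were 47.2 to 161, 200.0 to 294, 94.2 to 122 and 215 to 594 CPM in the same group order, with none at 0. For 7 erythroid genes they were 7.36 to 25.8, 112 to 214, 93.8 to 151 and 32.4 to 146 CPM, with at most 2 genes at 0 in a BCAA-free 5+3 library and at most 1 in any other. Their part in the results below was not tested. In bulk samples of sorted cells, fewer cells that express a gene and less RNA of it per cell cannot be told apart.

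Footprints of the 8 tested factors fell or did not pass the test, and no factor rose in any of the 5 comparisons. A gene passed at an adjusted p under 0.05 (edgeR quasi-likelihood test with Benjamini-Hochberg adjustment over all genes tested). When BCAA-free 5+3 mice were compared with BCAA-free vehicle mice, Cebpe, Cebpd and Runx1 fell in footprints, 3 of 8, in a comparison in which 20.6% of all genes passed and 11.9% passed with a lower value. When BCAA-free 5+3 mice were compared with AA 5+3 mice, Cebpe, Cebpd, Gfi1 and Runx1 fell, 4 of 8, against a background of 28.3% of genes in either direction and 15.8% lower. Both comparisons use the same BCAA-free 5+3 mice, so their values are not independent. The median log2 change of the 8 factors was -0.39 in the first and -0.41 in the second, where the median of all genes tested was -0.02 and 0.00. The factors were chosen with earlier results of these data known, so these counts and medians are a description and not an independent test.

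In mRNA, calls were fewer. Runx1 fell, as 1 of 10 factors, in BCAA-free 5+3 mice against BCAA-free vehicle mice, where 8.56% of genes passed and 4.23% were lower. Cebpd fell, as 1 of 10, in BCAA-free 5+3 mice against AA 5+3 mice, where 1.24% of genes passed and 0.682% were lower. The plot of changes sets mRNA and footprints side by side.

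**Figure D1:**
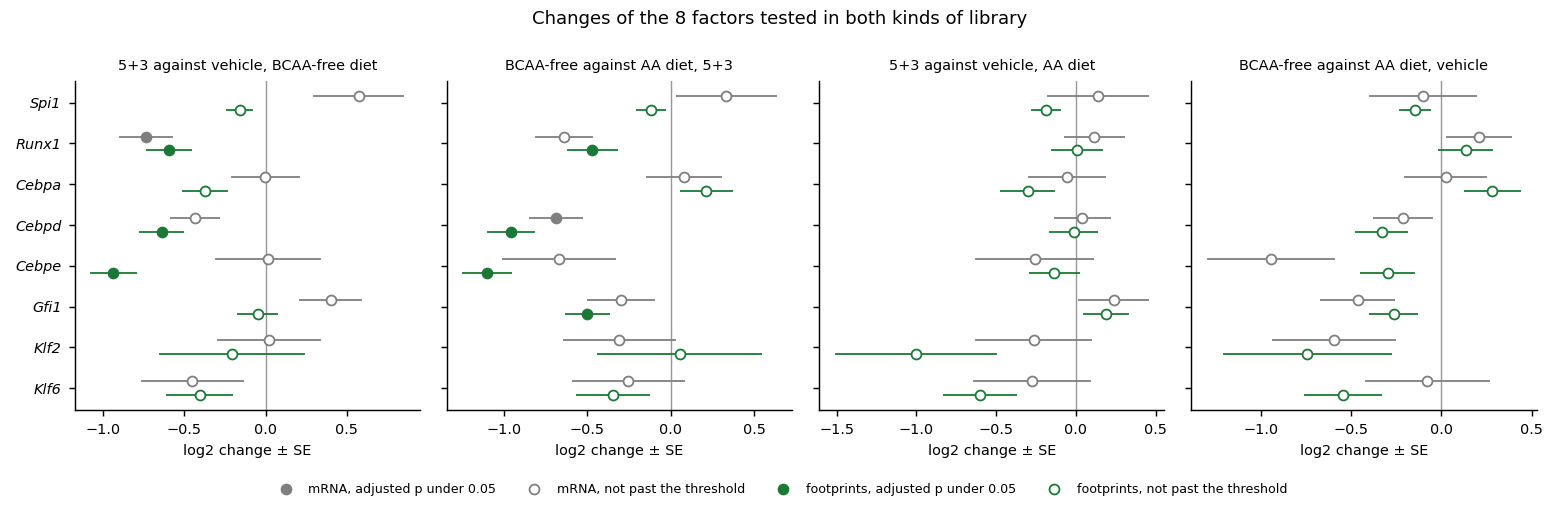
Log2 changes with the standard error (SE) of the fit for the 8 factors tested in both kinds of library, in 4 comparisons. Each panel has its own horizontal scale, grey circles are mRNA, green circles are footprints, and filled circles passed at an adjusted p under 0.05. All filled circles lie left of 0, in the first and second panels only.

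Without BCAA restriction, chemotherapy gave no call among the factors in the reported edgeR fits, which use the filter on low counts. In AA 5+3 mice against AA vehicle mice, 0 of 8 factors passed in footprints by edgeR or by DESeq2, while 6.61% of all genes passed by edgeR. At an unadjusted p under 0.05 were 1 factor (Klf6) and 3465 of 15723 genes. In mRNA 0 of 10 passed by edgeR, where 0.0616% of genes passed. There 2 factors (Klf4 and Egr1) and 1243 of 21114 genes had an unadjusted p under 0.05, and DESeq2 called Klf4. In BCAA-free vehicle mice against AA vehicle mice, 0 of 8 passed in footprints, where 2.04% of genes passed, and DESeq2 called no factor. At an unadjusted p under 0.05 were 2 factors (Cebpd and Klf6) and 2750 of 15723 genes. In mRNA 0 of 10 factors and 0% of 21114 genes passed by edgeR. At an unadjusted p under 0.05 these were 3 factors (Cebpe, Gfi1 and Klf4) and 2363 genes, and DESeq2 called 161 genes and none of the factors.

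C/EBP epsilon, needed for the late steps of granulocyte maturation, had the smallest adjusted p of the 8 factors in both comparisons. In BCAA-free 5+3 mice Cebpe footprints ranged from 9.91 to 24.0 CPM with a median of 16.1, against 29.9, 30.9, 26.6, 35.9 and 36.5 CPM in BCAA-free vehicle mice. They were 41.2, 32.9, 33.5 and 34.9 CPM in AA 5+3 mice and 35.5, 46.8, 33.6, 40.6 and 39.6 CPM in AA vehicle mice. All 7 BCAA-free 5+3 mice lay below every other mouse of the study, and the other 3 groups overlapped. How many of all genes show this was not counted. Pairs of groups did not overlap for 8.06% of genes against BCAA-free vehicle mice and for 17.5% against AA 5+3 mice. The group means were 16.3 ± 4.49 CPM (SD, n = 7), 32.0 ± 4.17 (n = 5), 35.6 ± 3.80 (n = 4) and 39.2 ± 5.12 (n = 5) in the same order. Cebpe fell by 0.94 ± 0.14 on the log2 scale (SE, adjusted p = 0.000105) with 5+3 on the BCAA-free diet, which is 1.92-fold lower, and without the 4 mice that stood apart it fell by 0.80 (adjusted p = 0.0245). Against AA 5+3 mice it fell by 1.10 ± 0.15 (SE, adjusted p = 1.06e-05), which is 2.15-fold lower, and without the 4 mice it fell by 1.01 on the log2 scale (adjusted p = 6.23e-05). With 5+3 on the AA diet the log2 change was -0.13 ± 0.16 (SE, adjusted p = 0.681, 95% interval -0.45 to 0.18), and for the diets under vehicle it was -0.30 ± 0.15 (SE, adjusted p = 0.304).

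The effect of 5+3 on Cebpe footprints differed between the diets. The interaction of diet and 5+3, the log2 change on the BCAA-free diet minus that on the AA diet, was -0.80 ± 0.21 (SE, adjusted p = 0.0249). Cebpe was the 1 factor of 8 past the threshold there, in a test that 7.09% of all genes passed and 3.80% passed with a negative value. For Cebpd the interaction was -0.63 ± 0.21 (SE, adjusted p = 0.0618) and for Runx1 -0.61 ± 0.22 (SE, adjusted p = 0.0837). Among the fits that left out mice, the Cebpe interaction did not pass without the 4 that stood apart (-0.66, adjusted p = 0.153), or without AA 5+3 replicate 1 or BCAA-free vehicle replicate 5. In mRNA 0 of 10 factors passed this test by edgeR or DESeq2, and 0.0758% of genes passed by edgeR. At an unadjusted p under 0.05 were 1 factor (Runx1) and 2545 of 21114 genes.

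The mRNA of Cebpe did not follow the same order. It was 38.0 to 167 CPM in BCAA-free 5+3 mice with a median of 61.1, against 79.7, 68.8, 51.3, 97.2 and 119 CPM in BCAA-free vehicle mice. It was 187, 144, 77.2 and 128 CPM in AA 5+3 mice and 106, 215, 118, 235 and 129 CPM in AA vehicle mice. The BCAA-free groups overlapped, and most AA mice lay above most BCAA-free mice. The log2 change with 5+3 on the BCAA-free diet was 0.02 ± 0.33 (SE, adjusted p = 0.982). Between the diets it was -0.67 ± 0.34 (SE, adjusted p = 0.415) under 5+3 and -0.95 ± 0.35 (SE, adjusted p = 0.383) under vehicle.

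Translational efficiency, the ratio of footprints to mRNA of the same mouse, was tested in 1 model of both kinds of library. For Cebpe the ratio of CPM was 0.139 to 0.331 in BCAA-free 5+3 mice (median 0.199) and 0.305 to 0.519 in BCAA-free vehicle mice (median 0.375). It was 0.220 to 0.434 in AA 5+3 mice (median 0.251) and 0.173 to 0.336 in AA vehicle mice (median 0.285). The ratios of BCAA-free vehicle mice were high, and the BCAA-free 5+3 mice overlapped both AA groups. The log2 change in efficiency with 5+3 on the BCAA-free diet was -0.79 ± 0.24 (SE, adjusted p = 0.0471), so Cebpe was the 1 factor of 8 to pass, where 7.45% of genes passed and 3.94% were lower. The call was lost in 13 of the 21 fits that left out 1 mouse and without the 4 mice that stood apart (adjusted p = 0.331). The log2 change itself was -0.90 to -0.67 in the fits without 1 mouse and -0.94 without the 4. The libraries without which it was lost are AA vehicle 1, 2 and 5, AA 5+3 2 and 4, BCAA-free vehicle 1, 2, 3 and 5, and BCAA-free 5+3 1, 2, 4 and 5, by replicate number.

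The other 4 tests of efficiency called no factor by edgeR or by DESeq2. Under 5+3 and in the interaction, 1 of 12097 genes (0.00827%) passed in each, and 0% passed with 5+3 on the AA diet and between the diets under vehicle. At an unadjusted p under 0.05 there were 333 genes with 5+3 on the AA diet, none of them a factor. Between the diets under vehicle there were 1083, among them Cebpe, and DESeq2 called 1 gene in the first of these tests and 0 in the second. In the interaction Cebpe had a log2 change of -0.89 ± 0.36 (SE, adjusted p = 0.358).

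C/EBP delta, a factor induced in the acute phase response and in maturing granulocytes, fell in footprints in the same mice. Cebpd footprints were 7.75 to 14.5 CPM in BCAA-free 5+3 mice (median 11.2), against 16.0, 19.3, 16.6, 16.1 and 21.7 CPM in BCAA-free vehicle mice. They were 23.2, 24.9, 24.8 and 17.2 CPM in AA 5+3 mice and 24.1, 20.6, 18.8, 22.1 and 27.3 CPM in AA vehicle mice. The BCAA-free 5+3 mice again lay below all other mice, and the BCAA-free vehicle mice filled the lower part of the remaining range. Separation from all other mice was not counted over all genes. Pairs of groups did not overlap for 8.06% of genes against BCAA-free vehicle mice and 17.5% against AA 5+3 mice. The log2 change was -0.64 ± 0.14 (SE, adjusted p = 0.00237) with 5+3 on the BCAA-free diet. It was -0.96 ± 0.14 (SE, adjusted p = 3.73e-05) between the diets under 5+3, and -0.01 ± 0.15 (SE, adjusted p = 0.972) with 5+3 on the AA diet. Without the 4 mice that stood apart the first of these did not pass (adjusted p = 0.155), while the comparison of diets under 5+3 passed in every fit.

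Cebpd mRNA was 49.7 to 80.3 CPM in BCAA-free 5+3 mice (median 71.5), against 96.1, 118, 108 and 117 CPM in AA 5+3 mice, with no overlap. It fell by 0.69 ± 0.16 on the log2 scale (SE, adjusted p = 0.0319), beside the fall in footprints. That mRNA call passed without the 4 mice that stood apart (adjusted p = 0.0389) and was lost in 8 of the 21 fits without 1 mouse: AA 5+3 replicates 1 to 4 and BCAA-free 5+3 replicates 1, 4, 5 and 6. Against 103, 75.7, 73.3, 98.1 and 110 CPM in BCAA-free vehicle mice the log2 change was -0.44 ± 0.15 (SE, adjusted p = 0.0726).

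C/EBP alpha, which commits progenitors to the granulocyte and monocyte path, passed in none of the reported tests. Cebpa footprints were 13.9 to 25.1 CPM in BCAA-free 5+3 mice (median 19.0), against 27.2, 20.8, 22.5, 28.4 and 24.6 CPM in BCAA-free vehicle mice. They were 13.3, 19.4, 20.4 and 13.1 CPM in AA 5+3 mice and 20.9, 23.2, 18.0, 19.0 and 20.7 CPM in AA vehicle mice. Mice given 5+3 reached lower values than vehicle mice on each diet, and on each diet the 5+3 and vehicle groups overlapped. The log2 change in footprints was -0.37 ± 0.14 (SE, adjusted p = 0.0649) with 5+3 on the BCAA-free diet and -0.30 ± 0.17 (SE, adjusted p = 0.314) on the AA diet. The first passed in 1 alternative, without BCAA-free 5+3 replicate 6 (adjusted p = 0.0382), and was -0.33 without the 4 mice that stood apart (adjusted p = 0.342). Between the diets under 5+3 it was 0.21 ± 0.16 (SE, 95% interval -0.10 to 0.53). Its mRNA averaged 23.1 ± 7.16 CPM (SD, n = 7), 23.1 ± 2.43 (n = 5), 21.8 ± 3.87 (n = 4) and 22.7 ± 4.90 (n = 5) in BCAA-free 5+3, BCAA-free vehicle, AA 5+3 and AA vehicle mice.

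**Figure D2:**
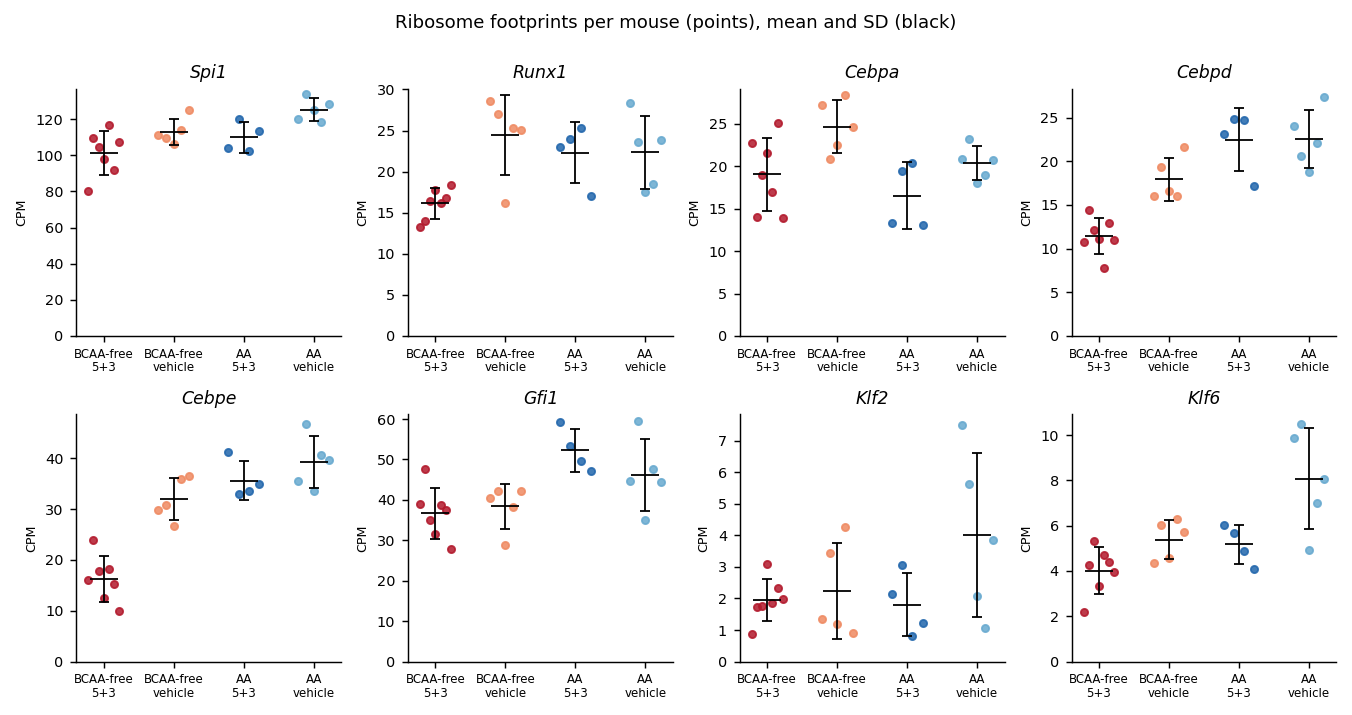
Footprint CPM of the 8 tested factors, 1 panel per gene with its own linear scale from 0. Each point is a mouse, coloured by group, and black bars are the group mean and SD (n = 7, 5, 4 and 5 from left to right). In the Cebpe and Cebpd panels the 7 BCAA-free 5+3 mice lie below all other mice, a separation that was not counted over all genes.

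RUNX1, which with its partner CBF beta sets up blood stem and progenitor programmes, fell in both kinds of library. Runx1 mRNA was 23.1 to 33.0 CPM in BCAA-free 5+3 mice (median 26.3), against 39.4, 54.8, 42.1, 37.0 and 48.6 CPM in BCAA-free vehicle mice. It was 33.8, 35.6, 52.2 and 44.7 CPM in AA 5+3 mice and 34.8, 33.0, 49.4, 33.1 and 41.8 CPM in AA vehicle mice. Every mouse of the other 3 groups lay above the BCAA-free 5+3 mice, with the lowest AA vehicle mouse nearly level with the highest of them. How many of all genes show this in mRNA was not counted. The log2 change in mRNA was -0.74 ± 0.17 (SE, adjusted p = 0.0140) with 5+3 on the BCAA-free diet and -0.64 ± 0.18 (SE, adjusted p = 0.0786) between the diets under 5+3. In that second comparison 2 of 10 factors, Runx1 and Cebpd, had groups that did not overlap in mRNA, as had 4.91% of all genes.

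Runx1 footprints were 13.2 to 18.4 CPM in BCAA-free 5+3 mice (median 16.4), against 28.6, 27.1, 16.1, 25.4 and 25.1 CPM in BCAA-free vehicle mice. They were 22.96, 24.0, 25.3 and 17.0 CPM in AA 5+3 mice and 28.4, 23.6, 17.5, 18.6 and 23.8 CPM in AA vehicle mice. In each other group 1 mouse lay within the range of the BCAA-free 5+3 mice, and the rest lay above it. The log2 change was -0.60 ± 0.14 (SE, adjusted p = 0.00452) with 5+3 on the BCAA-free diet and -0.47 ± 0.15 (SE, adjusted p = 0.0217) between the diets under 5+3. On the AA diet 5+3 gave 0.01 ± 0.16 (SE, adjusted p = 0.985). Without the 4 mice that stood apart, the calls with 5+3 on the BCAA-free diet did not pass in footprints (adjusted p = 0.288) or in mRNA (adjusted p = 0.305). The call between the diets passed without these 4 mice (-0.48, adjusted p = 0.0252) and was lost without AA 5+3 replicate 1, 2 or 3 (adjusted p up to 0.0923).

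PU.1, the factor that works with C/EBP and RUNX1 at myeloid enhancers, did not pass any test, and its footprints varied little. Spi1 footprints were 80.4 to 117 CPM in BCAA-free 5+3 mice (median 105), against 111, 110, 106, 114 and 125 CPM in BCAA-free vehicle mice. They were 104, 120, 102 and 113 CPM in AA 5+3 mice and 120, 134, 125, 118 and 128 CPM in AA vehicle mice. AA vehicle mice lay at the upper end, above all BCAA-free 5+3 mice, and the other pairs of groups overlapped. Log2 changes in footprints were -0.16 ± 0.08 (SE, 95% interval -0.32 to 0.00) with 5+3 on the BCAA-free diet and -0.12 ± 0.09 (SE, 95% interval -0.29 to 0.06) between the diets under 5+3. Its mRNA spread more widely, at 232 to 458 CPM in BCAA-free 5+3 mice (median 395), against 134 to 382 CPM in BCAA-free vehicle mice, and overlapped between all groups. The log2 change in mRNA was 0.57 ± 0.28 (SE, adjusted p = 0.191) with 5+3 on the BCAA-free diet, and that in efficiency was -0.68 ± 0.27 (SE, adjusted p = 0.0950). They were, without the 4 mice that stood apart, 0.91 (adjusted p = 0.295) and -0.96 (adjusted p = 0.331), and the footprint change was -0.11 (adjusted p = 0.638).

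GFI1, a repressor that holds back monocyte genes in granulocyte precursors, fell in footprints between the diets under 5+3. Gfi1 footprints were 27.8 to 47.5 CPM in BCAA-free 5+3 mice (median 37.5), against 59.2, 53.4, 49.6 and 47.1 CPM in AA 5+3 mice. They were 40.5, 42.3, 28.8, 38.2 and 42.2 CPM in BCAA-free vehicle mice and 44.6, 59.6, 34.9, 47.6 and 44.4 CPM in AA vehicle mice. The highest BCAA-free 5+3 mouse passed the lowest AA 5+3 mouse, and the BCAA-free groups overlapped. The log2 change between the diets under 5+3 was -0.50 ± 0.13 (SE, adjusted p = 0.00623), which passed in all fits without 1 mouse and without the 4 mice that stood apart. Against BCAA-free vehicle mice it was -0.05 ± 0.13 (SE, adjusted p = 0.824), and 0.23 without the 4 mice that stood apart (adjusted p = 0.465). The difference in mRNA between the diets under 5+3 was -0.30 ± 0.21 (SE, adjusted p = 0.583), from means of 108 ± 31.8 CPM (SD, n = 7) in BCAA-free 5+3 mice and 133 ± 6.56 (n = 4) in AA 5+3 mice.

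**Figure D3:**
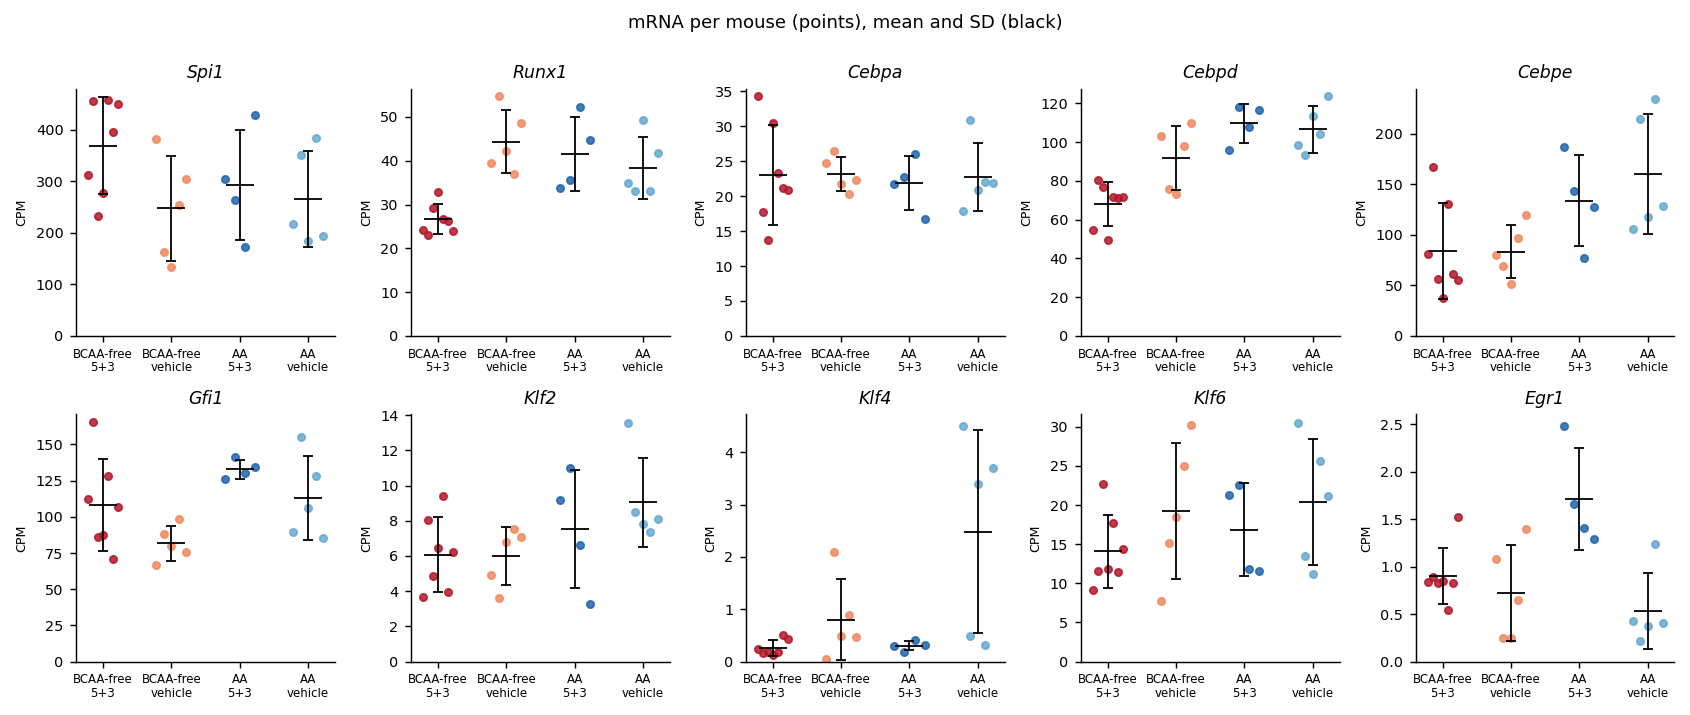
The mRNA CPM of all 10 factors, 1 panel per gene with its own linear scale from 0. Each point is a mouse, coloured by group, and black bars are the group mean and SD (n = 7, 5, 4 and 5 from left to right). Klf4 stays at or below 0.513 CPM in mice given 5+3 and reaches 4.50 CPM in AA vehicle mice, and in the Egr1 panel the 4 AA 5+3 mice lie above the AA vehicle mice.

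None of the 3 Krüppel-like factors passed the edgeR test where it was past the filter on low counts. Without that filter edgeR called Klf4 in footprints with 5+3 on the AA diet. KLF4, which promotes monocyte differentiation, had 0.306, 0.184, 0.412 and 0.322 CPM of mRNA in AA 5+3 mice, against 4.50, 0.487, 3.39, 0.315 and 3.71 CPM in AA vehicle mice. Of the 5 AA vehicle mice 3 were high, and the other 2 lay at or near the AA 5+3 range. The log2 change was -3.01 ± 0.91 (SE, adjusted p = 0.445 by edgeR and 0.0374 by DESeq2). BCAA-free 5+3 mice had 0.118 to 0.513 CPM (median 0.182) and BCAA-free vehicle mice 0.0526, 2.09, 0.495, 0.898 and 0.473 CPM, a log2 change of -1.62 ± 0.71 (SE, adjusted p = 0.146).

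Klf4 footprints were at 0 counts in all 4 AA 5+3 mice, against 7, 0, 2, 3 and 9 counts in AA vehicle mice. On raw total counts, without TMM scaling, a floor of 3 counts over the AA 5+3 group was 0.149 CPM. The pooled level in AA vehicle mice was 0.952 CPM on the same scale. The floor thus lay 6.37-fold below the observed vehicle level. It covers counting error in the AA 5+3 mice only, and the vehicle level is taken without error. Of the 21 vehicle counts, 16 came from 2 mice. BCAA-free 5+3 mice had 0 to 2 counts and BCAA-free vehicle mice 1 to 3.

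KLF2, which keeps lymphocytes and monocytes quiescent, had footprints of 0.871 to 3.08 CPM in BCAA-free 5+3 mice, 0.912 to 4.27 in BCAA-free vehicle mice, 0.817 to 3.05 in AA 5+3 mice and 1.06 to 7.50 in AA vehicle mice. These rest on 3 to 21 counts per library, and all groups overlapped. Its log2 change was -1.003 ± 0.51 (SE, adjusted p = 0.253) with 5+3 on the AA diet and -0.20 ± 0.45 (SE, adjusted p = 0.780) on the BCAA-free diet. KLF6, an injury-response factor of the same family, had footprints of 2.18 to 5.30 CPM in BCAA-free 5+3 mice, 4.35 to 6.28 in BCAA-free vehicle mice, 4.10 to 6.01 in AA 5+3 mice and 4.94 to 10.5 in AA vehicle mice. AA vehicle mice were highest on average, at 8.07 ± 2.24 CPM (SD, n = 5). Its log2 change was -0.60 ± 0.23 (SE, adjusted p = 0.119) with 5+3 on the AA diet and -0.41 ± 0.21 (SE, adjusted p = 0.168) on the BCAA-free diet.

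EGR1, an immediate-early factor linked to macrophage fate, was low in both kinds of library. Its mRNA was 2.48, 1.66, 1.41 and 1.29 CPM in AA 5+3 mice, against 0.430, 0.216, 0.379, 1.24 and 0.409 CPM in AA vehicle mice. These 2 groups did not overlap, which was so for 1 of 10 factors and for 4.24% of all genes, and the log2 change was 1.67 ± 0.63 (SE, adjusted p = 0.603). BCAA-free 5+3 mice had 0.546 to 1.52 CPM (median 0.837) and BCAA-free vehicle mice 1.08, 0.250, 0.247, 0.647 and 1.39 CPM, so that the BCAA-free groups overlapped. Egr1 had 0 to 3 footprint counts per library and 0 in 8 of 21. In those 8, 3 counts would be 0.438 to 1.07 CPM of the raw total.

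Groups that did not overlap were counted over all genes too. In footprints, 2 of 8 factors (Cebpe and Cebpd) showed no overlap of BCAA-free 5+3 with BCAA-free vehicle mice, beside 8.06% of all genes. The same 2 showed none with AA 5+3 mice, beside 17.5% of all genes. In mRNA, Runx1 was the 1 factor of 10 without overlap with 5+3 on the BCAA-free diet, beside 2.82% of genes. Separation of the BCAA-free 5+3 mice from all other mice at once was not counted over all genes. Nor was their separation from AA vehicle mice alone, seen for Spi1 footprints.

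Mice of the same group differed from each other in several factors, and for some genes the 2 kinds of library moved together. After each group's mean was taken off, Cebpe mRNA and footprints of the same mouse correlated with Pearson's r = 0.776 over 21 mice (permutation p = 0.0004 with values permuted within groups, adjusted p = 0.0032 over 8 factors). Spearman's rho was 0.814 (permutation p = 0.00021, adjusted p = 0.00168), and r was 0.662 without the 2 mice farthest from the median in mRNA. For Klf6 r was 0.600 (permutation p = 0.00528, adjusted p = 0.0211), rho was 0.549 (permutation p = 0.0187, adjusted p = 0.0748), and r was 0.487 without 2 mice. For the other 6 factors r was between -0.01 (Runx1) and 0.44 (Gfi1), and none passed. The median over 12097 genes tested in both kinds of library was 0.08, and 62% of genes lay above 0. Spread within groups also differed: for Spi1 the SD of log2 CPM was 0.508 in mRNA and 0.128 in footprints, and for Cebpe 0.600 and 0.266.

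**Figure D4:**
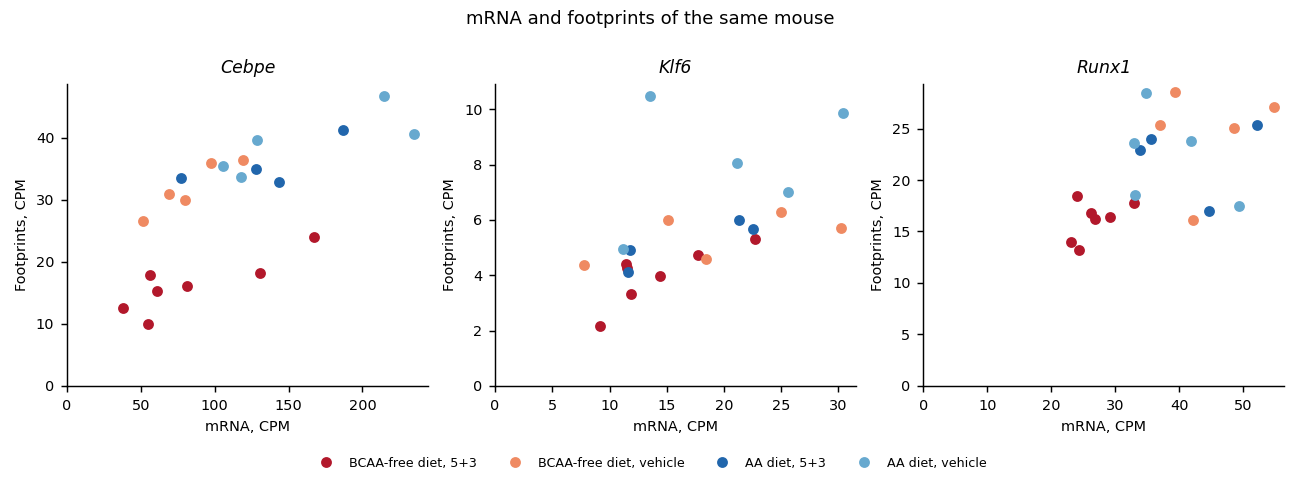
Footprint CPM (vertical) against mRNA CPM (horizontal) of the same mouse for Cebpe, Klf6 and Runx1, each axis linear from 0, with 1 point per mouse coloured by group. In the Cebpe panel the 7 BCAA-free 5+3 mice form a band below the other 14 mice.

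Genes whose footprint profile lay nearest to each factor were found by the root mean square (RMS) difference in log2(CPM + 1) over 21 libraries, after centring each gene. Candidates were 6506 or 6507 named genes with a mean of at least 10 CPM. Nearest to Cebpe were Ncf1, a subunit of the phagocyte NADPH oxidase, and Daglb (RMS 0.156 and 0.190, where the SD of Cebpe itself was 0.600). Nearest to Cebpd were Nbeal2, a gene needed for platelet and neutrophil granules, and Synj1 (0.168 and 0.184, own SD 0.462). Nearest to Spi1 were Stxbp2, which acts in granule release, and Fermt3, the blood-cell kindlin (0.105 and 0.116, own SD 0.168). Runx1 lay nearest to Hectd4 and the histone methyltransferase gene Kmt2d (0.174 and 0.184, own SD 0.328), and Gfi1 to Nans and Tufm (0.166 and 0.171, own SD 0.294). Cebpa lay nearest to Urod and Gipc1 (both 0.207, own SD 0.310) and Klf6 to Idua and Ccdc88c (0.192 and 0.216, own SD 0.424). For Klf2 the nearest, Myh10 and Esyt1, were 0.441 and 0.447 away, against an own SD of 0.614.

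Relatives and partners of the factors were followed as a list of 28 genes, 17 of them tested in footprints. With 5+3 on the BCAA-free diet 6 of 17 fell and none rose, with a list median of -0.24, where 20.6% of all genes passed and 11.9% were lower. The 4 with the smallest adjusted p were Ets1 (-1.49 ± 0.18), Cebpg (-1.23 ± 0.20), Cbfb (-0.37 ± 0.08) and Klf10 (-0.59 ± 0.14), as log2 changes with SE. Cebpg encodes a C/EBP partner that lacks an activation domain, and Cbfb the RUNX partner CBF beta. Under 5+3, 6 of 17 fell in BCAA-free against AA mice and Klf13, named after its values were seen, rose (0.67 ± 0.17), with a median of -0.10, beside 28.3% of all genes called and 15.8% lower. Those with the smallest adjusted p were Ets1 (-1.52 ± 0.19), Cebpg (-1.56 ± 0.20), Cebpb (-0.75 ± 0.14) and Klf5 (-1.03 ± 0.19). With 5+3 on the AA diet and between the diets under vehicle, Ets1 fell alone of the 17 (-0.71 ± 0.19 and -0.75 ± 0.18), beside 6.61% and 2.04% of all genes. In mRNA 3 of 26 passed with 5+3 on the BCAA-free diet (Klf12 and Nab2 lower, Nab1 higher), beside 8.56% of all genes, and Cebpg passed between the diets under 5+3 (-1.01 ± 0.23), beside 1.24%. Without the 4 mice that stood apart, the count with 5+3 on the BCAA-free diet was 3 of 19 (Ets1, Cebpg and Klf10), beside 2.39% of all genes. The count between the diets under 5+3 was then 6 lower and 1 higher of 19, beside 23.9%. None then passed between the diets under vehicle, or in mRNA with 5+3 on the BCAA-free diet.

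**Figure D5:**
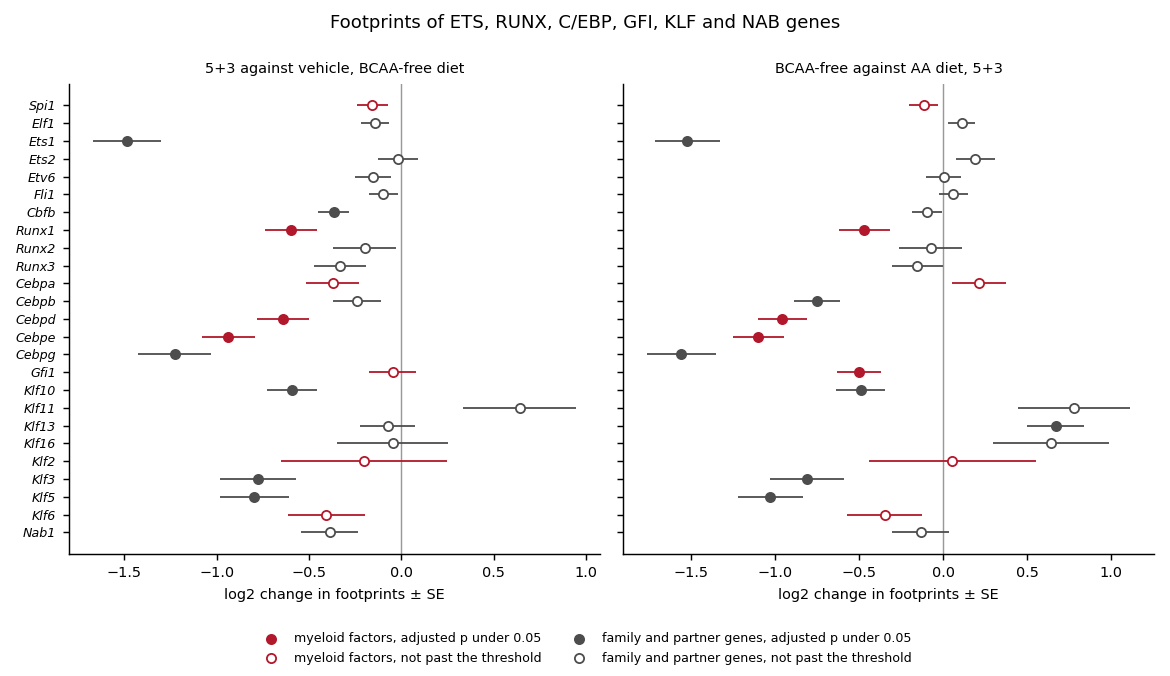
Log2 changes in footprints with SE for the 8 factors (red) and 17 tested relatives and partners (grey), ordered by family, with 5+3 on the BCAA-free diet (left) and between the diets under 5+3 (right). Filled circles passed at an adjusted p under 0.05. Ets1 and Cebpg lie farthest to the left in both panels, and Klf13 is the filled circle right of 0.

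Genes known as targets of C/EBP alpha or epsilon, mostly granule proteins of neutrophils, were tested as a list of 10. With 5+3 on the BCAA-free diet 6 of 10 fell in footprints and none rose (median -0.93), beside 20.6% of all genes called and 11.9% lower, led by the collagenase gene Mmp8 (-3.02 ± 0.45), the interleukin 6 receptor gene Il6ra (-0.80 ± 0.16), lactoferrin Ltf (-2.29 ± 0.53) and the granule gene Ngp (-1.81 ± 0.49). Set against AA 5+3 mice, the BCAA-free 5+3 mice had 6 of 10 lower (median -0.70), beside 28.3% called and 15.8% lower, led by myeloperoxidase Mpo (-0.60 ± 0.14), lipocalin Lcn2 (-1.27 ± 0.37), proteinase 3 Prtn3 (-0.40 ± 0.14) and elastase Elane (-0.42 ± 0.15). In AA 5+3 mice Mpo (0.59 ± 0.15) and Prtn3 (0.62 ± 0.15) rose against AA vehicle mice and Il6ra fell (-0.86 ± 0.20), beside 6.61% of all genes. None of the 10 passed between the diets under vehicle, where 2.04% of all genes did. In mRNA 4 of 10 fell with 5+3 on the BCAA-free diet (8.56% of all genes passed), and 2 of 10 between the diets under 5+3 (1.24%). Without the 4 mice that stood apart, footprint calls were 1 of 10 (Mmp8) with 5+3 on the BCAA-free diet, beside 2.39% of all genes, and 2 of 10 (Mpo and Lcn2) between the diets under 5+3, beside 23.9%. The mRNA calls were then 2 of 10 and 1 of 10 in these comparisons, beside 0.0779% and 2.09%. Of these 10 genes 4 are also in the mature neutrophil marker list, whose sums were given above.

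Of 13 genes known as PU.1 targets 12 were tested in footprints. Of these, 5 of 12 fell with 5+3 on the BCAA-free diet (median -0.36), beside 20.6% of all genes called and 11.9% lower, among them Ncf1 (-0.71 ± 0.12), the signalling adaptor gene Tyrobp (-0.59 ± 0.10), the M-CSF receptor gene Csf1r (-1.45 ± 0.26) and the kinase gene Btk (-0.40 ± 0.09). Under 5+3, 6 of 12 fell in BCAA-free against AA mice (median -0.40), beside 28.3% called and 15.8% lower, among them Ncf1 (-1.04 ± 0.12) and the integrin gene Itgam (-0.92 ± 0.18). On the AA diet 3 of 12 fell with 5+3 (Tyrobp, Csf1r and Csf2ra), beside 6.61% of all genes, and between the diets under vehicle Itgam fell (-0.95 ± 0.18), beside 2.04%. None of the 12 rose in these 4 comparisons. Without the 4 mice that stood apart, the counts were 2 of 12 (Ncf1 and Tyrobp) with 5+3 on the BCAA-free diet and 5 of 12 between the diets under 5+3, beside 2.39% and 23.9% of all genes, and none passed between the diets under vehicle. Of 16 immediate-early genes 7 were tested in footprints. Of these 1 passed, Dusp2, higher between the diets under 5+3 (0.74 ± 0.25), beside 28.3% of all genes called and 12.5% higher. In mRNA 15 were tested, and Jun rose (1.78 ± 0.43) and Ier5 fell (-1.09 ± 0.30) with 5+3 on the BCAA-free diet, beside 8.56% of all genes. None of 15 passed there without the 4 mice. Between the diets under 5+3, the fit without the 4 mice called Jun lower in mRNA (-1.77, adjusted p = 0.0257), 1 of 15, beside 2.09% of all genes. In footprints that fit called Dusp2 higher (0.79) and Btg2 lower (-0.91) of 8 tested, beside 23.9%.

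Among 20 other blood transcription factors 13 were tested in footprints. Irf8, a monocyte-determining factor, fell with 5+3 on the AA diet (-1.78 ± 0.50) and on the BCAA-free diet (-1.82 ± 0.41). On the AA diet Gata2 fell too (-1.29 ± 0.31), and these were 2 of 13, beside 6.61% of all genes (1 of 13, Gata2, and 5.25% without the 4 mice). On the BCAA-free diet 6 of 13 fell, beside 20.6% of all genes called and 11.9% lower, with Zbtb16 (-0.94 ± 0.21), Myb (-0.33 ± 0.08) and Bcl6 (-0.87 ± 0.28) next to Irf8, and none of 13 passed without the 4 mice that stood apart. Between the diets under 5+3 Gata2 rose (0.82 ± 0.30), while Myb (-0.30 ± 0.08) and Lmo2 (-0.27 ± 0.10) fell, beside 28.3% of all genes called. Of these Myb passed without the 4 mice, beside 23.9% of all genes. None of the 13 passed between the diets under vehicle, where 2.04% of all genes did.

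As a group, BCAA-free 5+3 mice had the lowest mature neutrophil sums in footprints (median 229 CPM, against 1160, 1190 and 1050 CPM in BCAA-free vehicle, AA 5+3 and AA vehicle mice). They also had the lowest mean footprints of Cebpe, Cebpd and Runx1. BCAA-free 5+3 replicate 3, chosen after its values were seen, had a neutrophil sum of 1180 CPM in footprints, within the range of the other 3 groups, where the other 6 mice of its group had 105 to 417 CPM. In that mouse Cebpe had 17.8 CPM, Cebpd 12.1 CPM and Runx1 16.4 CPM of footprints, each within the range of its own group. Whether the neutrophil sums bear on the levels of these factors was not tested, and a mouse chosen by its values cannot decide it.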

How the data were processed

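Each of 21 mice gave 1 mRNA and 1 footprint library (42 in all), paired by the mouse names in the labels. For 14 of 21 mice the deviations of the mRNA library from its group mean correlated best, within the group, with the footprints of the same mouse. The median correlation with the same mouse was low, at 0.109. The authors deposited whole-number counts per gene, with no normalization, per the labels and the values. The notes of the submitters name, as tools, cutadapt, Bowtie2, STAR, SAMtools and featureCounts, and as build GRCm38 (mm10). Their versions and roles, the annotation and whether strand was used are not known here. Symbols were found for 55141 of 55487 identifiers. All mice received cells from 1 donor mouse, and no pair of libraries within a group agreed within sampling noise.

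The edgeR 4.0.16 robust quasi-likelihood test (R 4.3.3) was run on TMM-scaled counts with all 4 groups in 1 fit per kind of library, after filterByExpr (minimum count 10, minimum total 15) left 21114 genes in mRNA and 15723 in footprints. Translational efficiency was the interaction of library kind and group over 12097 genes, with the mouse as a block. Adjusted p is by Benjamini-Hochberg over all genes tested. Levels are CPM of the TMM-adjusted library total. Floors of 3 counts and the pooled Klf4 level are CPM of the raw total count, without TMM scaling. Intervals are 95% from the SE of the fit, and the floors cover counting error only. Depth limits the footprints of Klf2, Klf4 and Egr1. Correlations used 100000 permutations. Alternatives were DESeq2 1.42.0, median-ratio scaling, no filter, only the compared groups, a replicate block and leaving out each mouse. Leaving out the 4 mice that stood apart in mRNA was added after seeing the data. The tests were tested on simulated data. Promoters and places are from RefSeq (GRCm38.p6).

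The members, lists and rules were chosen with earlier results of these data known. Named genes were all 10 members, the 2 nearest footprint profiles of each tested in footprints, and up to 4 genes per list and comparison with the smallest adjusted p. Other names were chosen after their values were seen. A list of KLF2 targets is not reported here.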

Additional observations from a re-analysis of the deposited data

Results flagged for a closer look

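In 5 of 79 groups of mice 1 value stood far from the others, where chance alone would give about 1 in 20 groups. Egr1 footprints were 0.5055 CPM (3 counts) in BCAA-free 5+3 replicate 5, and the next mouse had 0.1359 CPM. Egr1 mRNA was 1.523 CPM in BCAA-free 5+3 replicate 7, among the 4 mice whose mRNA libraries stood apart, where the next mouse had 0.886 CPM. In AA vehicle replicate 4 it was 1.238 CPM, and the next mouse had 0.4298 CPM. Klf2 mRNA was 13.53 CPM in AA vehicle replicate 1, where the next mouse had 8.473 CPM. Runx1 footprints were 16.14 CPM in BCAA-free vehicle replicate 3, where the next mouse had 25.08 CPM, and the Runx1 mRNA of that mouse was 42.1 CPM, inside its group.

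The change with 5+3 differed between the diets for Cebpe footprints, by -0.8034 on the log2 scale (edgeR interaction term, adjusted p = 0.0249). This call was lost in 2 of the 21 fits without 1 mouse, without the 4 mice whose mRNA libraries stood apart (adjusted p = 0.153) and with a replicate block.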

How the results depend on the processing

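Of 3411 values of single factors under an alternative, 3237 kept their direction and side of the threshold, 128 that were not called changed sign, 35 lost a call and 11 gained one, and none that was called changed sign. The Cebpe footprint calls with 5+3 on the BCAA-free diet and between the diets under 5+3, and the Gfi1 and Cebpd footprint calls between the diets under 5+3, held under every alternative run. Counts of factors called are given here against the reported count. Without the 4 mice that stood apart, which leaves 2 BCAA-free vehicle mice, the count with 5+3 on the BCAA-free diet was 1 in footprints (reported 3), 0 in mRNA (reported 1) and 0 in efficiency (reported 1), and 0 in the footprint interaction (reported 1). With DESeq2 the mRNA count was 1 with 5+3 on the AA diet (Klf4, reported 0), 2 on the BCAA-free diet (Cebpd added) and 2 between the diets under 5+3 (Runx1 added). Without a filter it was 1 in footprints with 5+3 on the AA diet (Klf4, reported 0) and 0 in mRNA between the diets under 5+3 (reported 1). With a replicate block, which joins mice of the same number, it was 0 in the footprint interaction (Cebpe lost) and 0 in mRNA between the diets under 5+3 (reported 1 each). In efficiency, no replicate block, that is, leaving the mouse out of the model, gave 0 (reported 1). The replicate numbers did not pair mice across groups: same-numbered mice had a median correlation of deviations of 0.0643 in mRNA and -0.009 in footprints. Leaving out 1 mouse at a time gave 3 to 4 footprint calls with 5+3 on the BCAA-free diet, 3 to 4 between the diets under 5+3 and 0 to 3 in the interaction. In mRNA it gave 1 to 2 calls and 0 to 1 calls in the first 2 of these comparisons, and in efficiency 0 to 1 in the first. The cause was not tested. Over all genes, calls with 5+3 on the BCAA-free diet were 395 in footprints and 19 in mRNA without the 4 mice, against 3242 and 1807 reported. In efficiency they were 0 without the 4 mice and 1774 with DESeq2, against 901. In mRNA, DESeq2 gave 94, 3471, 776 and 176 calls with 5+3 on the AA diet, with it on the BCAA-free diet, between the diets under 5+3 and in the interaction, against 13, 1807, 262 and 16. Between the diets under vehicle, footprint calls were 591 with DESeq2, 659 without a filter and 0 without the 4 mice, against 321. The footprint interaction gave 406 calls with a replicate block and 109 without the 4 mice, against 1115. In mRNA a replicate block gave 2743 calls with 5+3 on the BCAA-free diet and 67 between the diets under 5+3, and a fit of only the compared groups gave 701 in the first and 39 with 5+3 on the AA diet. Between the diets under 5+3 mRNA calls were 509 without the 4 mice and 174 without a filter, and with 5+3 on the AA diet they were 30 without the 4 mice. Without a filter the median mRNA change of all genes shifted by 0.22 with 5+3 on the AA diet, -0.27 between the diets under 5+3 and -0.46 in the interaction.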
